A study of Mus musculus with 16 samples.

Results

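Kidney RNA of 4 IRR knockout mice and 4 wild-type mice was compared after both genotypes had drunk sodium bicarbonate. The comparison is between 8 of the 16 libraries of the series, chosen by genotype and drink alone, and 12943 of the 13430 genes in the table were tested. The knockout mice carried the label IRR-/-, and their drink was water with 250 mM NaHCO3 at pH 8.5, given for 7 days. Their controls were wild-type animals given the same drink for the same time. The remaining 8 libraries came from 4 knockout and 4 wild-type mice on plain water. They enter the same fit, where they add to the estimate of the spread, and are used to ask whether the genotype difference depended on the drink. All 16 animals were female C57BL/6 mice aged 2 to 3 months, kept free of specific pathogens, and all had fasted for 12 h. Each library was made from 1 animal, from a 3 mm slice cut across the middle of the kidney, so cell types are mixed in it. How the Insrr allele was made, and whether the controls were littermates, the sources used here do not say.

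IRR, the insulin receptor-related receptor, is the third member of the family that holds the insulin and IGF receptors. It is a tyrosine kinase activated by alkaline fluid outside the cell rather than by insulin. In the kidney it is known from the type B intercalated cells of the collecting system, which secrete bicarbonate through the chloride and bicarbonate exchanger pendrin. Type A intercalated cells do the reverse and secrete acid with a proton pump and the anion exchanger AE1. The comparison asks which kidney transcripts differ when an animal without this receptor has to excrete an alkali load.

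Levels are RPKM, reads scaled to the length of the transcript and to the size of the library. Differences are log2 values of knockout minus wild type on the log2(RPKM + 0.1) scale, given with the standard error (SE), and understate the change of low genes. A gene is said to have passed, or to be higher or lower, where limma's Benjamini-Hochberg adjusted p over all 12943 genes was under 0.05. Of these genes 2381 passed (18.4%), with 1169 higher in the knockout (9.03%) and 1212 lower (9.36%). The counts in gene lists below are to be read beside these shares. The difference exceeded 2-fold for 130 of the higher genes and 92 of the lower genes. The 4 knockout values did not overlap with the 4 wild-type values for 2955 genes (22.8%). When each of the 8 libraries was left out in turn, 1414 of the calls held in all 8 fits, 705 of them higher and 709 lower. Fitted to the 8 bicarbonate libraries alone, 2049 genes passed, 1842 of them among the 2381. The median log2 difference of all genes was -0.02.

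The libraries differed in ways that all results below share. Summed RPKM was 2.42e+06 to 2.73e+06 in the knockout and 1.36e+06 to 1.54e+06 in wild type. The 13 mitochondrially encoded genes made up 82.6% to 84.3% of the sums in the knockout and 69.6% to 71.6% in wild type. These are shares of summed RPKM and not of reads, because RPKM is scaled to transcript length. A single gene of the 13, mt-Atp8, made up most of their sum in both groups, at levels given below. Without the 13 genes the sums were 421171 to 438783 in the knockout and 407782 to 438564 in wild type. Rescaling to the sum without those genes gave 913 higher and 1561 lower genes, so that 36.9% of the calls were higher in place of 49.1%. The first principal component (25.4% of the variance) separated the genotypes, and wild-type library 3 stood apart on the second. In that library Kap, an androgen-regulated transcript of the proximal tubule, was at 742 RPKM, against 7148 to 9256 RPKM in the other wild-type libraries, and the count of genes that passed was 2243 without it. Markers of red blood cells summed to 253 to 630.0 RPKM in the knockout and 832 to 1569.5 RPKM in wild type. Their 7 tested members all had negative differences, with a median of -1.16, and Hba-a2 and Alas2 passed. Adipose markers were uneven within both groups. Fabp4, the fatty acid binding protein of fat cells, had 325, 68.2, 83.4 and 65.7 RPKM in the knockout libraries and 277, 94.3, 388 and 181 RPKM in wild type. All 6 tested adipose genes had negative differences and 0 passed, with a median of -2.30. Without knockout library 1 the median was -3.59 and 2 passed, and without knockout library 2 it was -1.01. The part of blood, fat or library 3 in the results was not tested. Proximal tubule markers, the bulk of this tissue, were present in both groups, with Lrp2, the endocytic receptor megalin, at 211 ± 20.7 RPKM in the knockout and 199.7 ± 24.2 RPKM in wild type (SD, n = 4 each, limma adjusted p = 0.584).

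Insrr itself was lower but not absent in the knockout. Its level was 3.68, 3.31, 3.71 and 3.61 RPKM in the 4 knockout libraries and 4.85, 4.98, 4.20 and 6.50 RPKM in the 4 wild-type libraries. The groups did not overlap, although the lowest wild-type library lay close to the highest knockout library. Knockout mice averaged 3.58 ± 0.181 RPKM and wild-type mice 5.13 ± 0.972 RPKM (SD, n = 4 each). This gave -0.49 ± 0.13 on the log2 scale (± SE, limma adjusted p = 0.0182). The call ended without knockout library 2, at -0.46, and without wild-type library 4, at -0.37. Insrr spans chr3:87796951-87816101 in GRCm38 and its longest annotated transcript has 5102 nt. A deletion that leaves most of a transcript in place still yields RPKM, so these values do not check the loss of the protein.

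Pendrin was the type B gene with the clearest difference. Slc26a4, which encodes it, had 17.8, 15.1, 15.1 and 14.95 RPKM in the knockout libraries and 35.8, 33.8, 30.4 and 32.8 RPKM in wild type. Every knockout library lay far below every wild-type library. Knockout mice averaged 15.7 ± 1.37 RPKM and wild-type mice 33.2 ± 2.23 RPKM (SD, n = 4 each), and the log2 difference was -1.07 ± 0.11 (limma adjusted p = 1.78e-05). Hmx2, a homeobox transcription factor used as a type B marker, had 4.66, 2.75, 2.15 and 2.38 RPKM in the knockout and 6.99, 5.10, 4.11 and 4.30 RPKM in wild type. Knockout library 1 reached into the wild-type range, and the difference of -0.79 (adjusted p = 0.0188) did not pass without knockout library 3 (-0.66), knockout library 4 (-0.71) or wild-type library 1 (-0.64). Slc4a8, a sodium-driven chloride and bicarbonate exchanger, was higher at 4.90, 4.14, 4.67 and 4.87 RPKM, against 2.87, 2.37, 3.31 and 3.87 RPKM in wild type. Its log2 difference of 0.58 (adjusted p = 0.0402) passed in 1 of the 8 fits that left out a library, the one without wild-type library 4, and lay between 0.46 and 0.64 in the other 7. Oxgr1, the oxoglutarate receptor of type B cells, gave 0.00 (adjusted p = 0.993). Of the 5 tested type B genes 3 were thus lower, Insrr included, and 1 higher, with a median of -0.49. In a whole slice, fewer cells of a type and less RNA per cell cannot be told apart.

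The promoter of Slc26a4 is shown because pendrin led the type B genes. The window runs from 250 bases before to 50 bases after the RefSeq start site (chr12:31559935-31560234, minus strand, GRCm38.p6), 5′ to 3′, with a TATA box (TATAAA) in capitals 31 bases before the start.
Slc26a4: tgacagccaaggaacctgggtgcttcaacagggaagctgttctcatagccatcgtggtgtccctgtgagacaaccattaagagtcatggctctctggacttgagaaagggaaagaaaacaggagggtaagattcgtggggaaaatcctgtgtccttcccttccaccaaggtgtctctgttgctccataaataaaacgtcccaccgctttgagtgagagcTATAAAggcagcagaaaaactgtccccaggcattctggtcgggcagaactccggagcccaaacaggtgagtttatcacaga
A TATA box on either strand was found in the windows of 2 of the 4 type B genes present in the RefSeq table, Slc26a4 and Hmx2, and in 15.7% of all 27025 genes of that table and 8.98% of the 10178 tested genes in it. The forkhead core TAAACA, a motif of the family of Foxi1, was in none of the 4 windows and in 15.1% of all genes and 10.7% of tested genes. A match is a description of these letters and not a binding site.

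No marker of type A intercalated cells passed. In limma 0 of the 5 tested markers had an adjusted p under 0.05, 0 had an unadjusted p under 0.05, and the median log2 difference was 0.14. Slc4a1, which encodes AE1 and is also a red cell gene, had 13.4, 13.96, 17.9 and 15.7 RPKM in the knockout and 16.8, 17.4, 30.7 and 20.6 RPKM in wild type, with library 3 the highest in both groups (difference -0.45 ± 0.22, adjusted p = 0.172). Aqp6, a water channel of these cells, gave 0.27 ± 0.22 (adjusted p = 0.428), Kit, a receptor tyrosine kinase, 0.14 ± 0.22 (adjusted p = 0.711), and Dmrt2, a transcription factor, -0.20 ± 0.19 (adjusted p = 0.515). Adgrf5, an adhesion receptor, gave 0.33 ± 0.21 (adjusted p = 0.299). Foxi1, the transcription factor that both intercalated types need, had 11.4, 12.99, 11.3 and 12.7 RPKM in the knockout and 11.2, 16.04, 21.6 and 16.96 RPKM in wild type, and its difference of -0.40 ± 0.18 did not pass (adjusted p = 0.141).

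**Figure D1:**
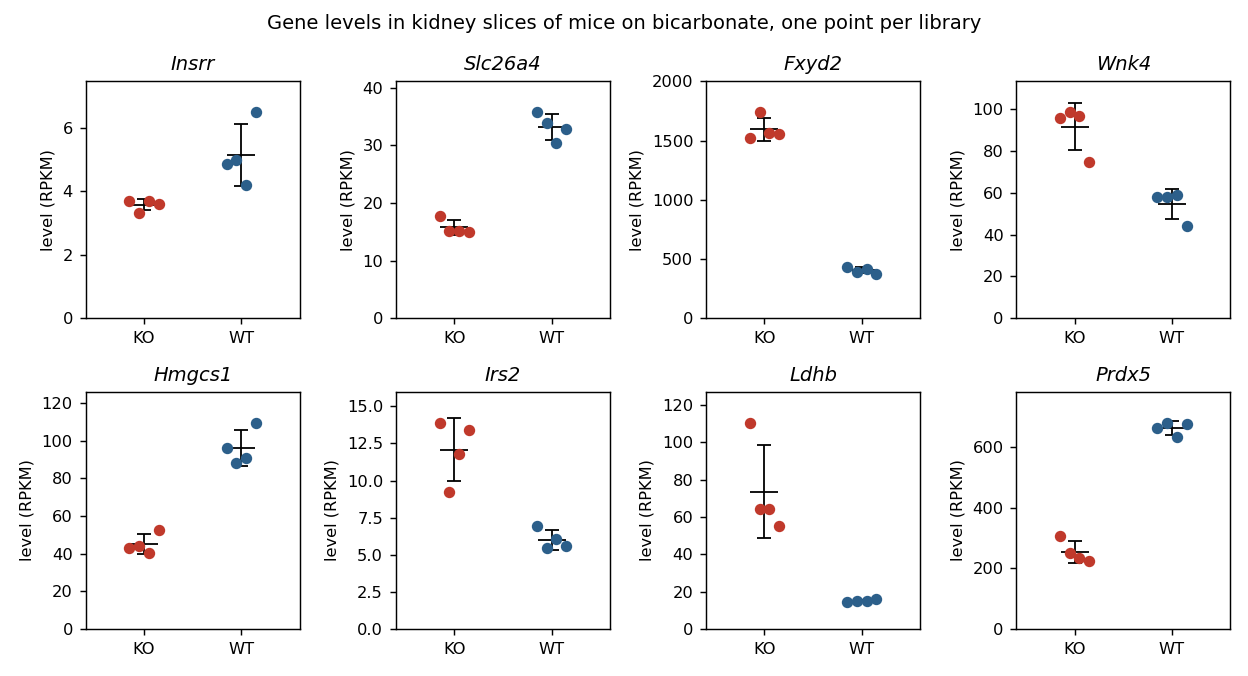
Levels (RPKM, vertical axes from 0) of 8 genes in the 4 knockout (KO) and 4 wild-type (WT) libraries on bicarbonate. Points are libraries and bars show the mean and SD; in each panel the groups do not overlap, with Slc26a4 at 14.95 to 17.8 RPKM in KO and 30.4 to 35.8 RPKM in WT.

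Subunits of the proton pump were lower more often than higher. Of 24 pump and shared intercalated cell genes, 5 were lower and 3 higher, with a median of -0.13, and 18 had negative differences. Atp6ap2, the prorenin receptor and an accessory subunit, had 70.7, 67.04, 65.5 and 61.2 RPKM in the knockout and 91.2, 92.1, 97.9 and 93.6 RPKM in wild type, with no overlap and a narrow spread in both groups (difference -0.50 ± 0.06, adjusted p = 7.44e-05). Atp6v0b of the membrane sector had 153, 132, 134 and 139.6 RPKM in the knockout and 191, 189, 232 and 183 RPKM in wild type (-0.51 ± 0.09, adjusted p = 0.00154). Atp6v1b2, the B subunit made by most cells, gave -0.37 ± 0.07 (adjusted p = 0.00281) and Atp6v1h, a regulatory subunit, -0.33 ± 0.08 (adjusted p = 0.00916). These 4 calls held in all 8 fits. The pump is found in lysosomes of all cells, so its subunits do not mark intercalated cells alone.

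Among the 17 tested bicarbonate and proton exchangers 3 were higher and 2 lower. Next to Slc26a4 the lower gene was Slc4a2, which encodes the anion exchanger AE2, with 17.7, 16.5, 18.2 and 15.99 RPKM in the knockout and 29.8, 40.4, 20.4 and 26.1 RPKM in wild type. The wild-type libraries spread widely, but all lay above the knockout (difference -0.73 ± 0.18, adjusted p = 0.0107). Slc9a3r1, a scaffold of the sodium and proton exchanger NHE3, was higher with 68.2, 78.4, 70.2 and 69.7 RPKM in the knockout and 51.5, 55.01, 64.1 and 63.3 RPKM in wild type (0.30 ± 0.08, adjusted p = 0.0194). Its call did not hold without knockout library 2 (0.25), wild-type library 1 (0.24) or wild-type library 2 (0.27). Of 13 carbonic anhydrases, which interconvert carbon dioxide and bicarbonate, Car4 alone passed (difference 0.49 ± 0.16, adjusted p = 0.0475), and it passed in none of the 8 fits that left out a library, where its difference was 0.43 to 0.53. Of 15 genes of ammonia production and transport 3 were higher and 0 lower. Slc7a8, a basolateral amino acid transporter of the proximal tubule, was the one whose call held in all 8 fits, with 84.7, 80.6, 85.1 and 85.5 RPKM in the knockout and 70.1, 72.5, 64.3 and 73.7 RPKM in wild type (0.26 ± 0.05, adjusted p = 0.00371). Slc25a1, the mitochondrial citrate carrier, was lower with 46.7, 40.97, 40.6 and 44.3 RPKM in the knockout and 54.98, 52.8, 57.6 and 53.9 RPKM in wild type (-0.35 ± 0.07, adjusted p = 0.00287). It was 1 of 2 lower genes among 9 of dicarboxylate and citrate transport, none of which was higher.

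Genes of the sodium pump and its FXYD partners were higher in the knockout more often than lower. Fxyd2, the gamma subunit that tunes the sodium pump in kidney tubules, had 1525, 1741, 1566 and 1553 RPKM in the knockout libraries and 436, 391.9, 417 and 375 RPKM in wild type. All 4 knockout libraries lay several-fold above all wild-type libraries. The log2 difference was 1.98 ± 0.07 (limma adjusted p = 1.68e-10). Fxyd2 spans chr9:45399669-45410278 in GRCm38. Of 10 tested sodium pump and FXYD genes 5 were higher and 0 lower, with a median of 0.41. Atp1b2, a beta subunit of the pump, had 12.3, 12.03, 11.4 and 14.4 RPKM in the knockout and 8.27, 9.56, 9.48 and 8.02 RPKM in wild type (0.50 ± 0.12, adjusted p = 0.0110). Atp1b1, the main beta subunit of the kidney, had 1779, 1939, 1853 and 1842 RPKM in the knockout and 1289.5, 1445, 1663 and 1608 RPKM in wild type. Its difference of 0.31 ± 0.09 (adjusted p = 0.0288) passed in 3 of the 8 fits that left out a library and was 0.24 to 0.36 over all 8. Fxyd3 and Fxyd5 also passed but had overlapping groups. With RPKM rescaled to the sum without mitochondrially encoded genes, 3 of the 10 passed. The count of 5 was 2 without knockout library 3 or wild-type library 2, 3 without knockout library 2 or 4 or wild-type library 1 or 3, and 4 in the other fits that left out a library.

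Both named regulators of the thiazide-sensitive sodium chloride cotransporter were higher. Wnk4, a kinase upstream of that cotransporter, had 95.98, 98.8, 96.8 and 74.8 RPKM in the knockout and 58.2, 58.3, 58.9 and 44.03 RPKM in wild type, with library 4 the lowest in each group (0.74 ± 0.11, adjusted p = 4.62e-04). Klhl3, the adaptor that marks WNK kinases for degradation, had 17.9, 14.98, 15.7 and 14.9 RPKM in the knockout and 10.6, 12.4, 12.5 and 12.7 RPKM in wild type (0.39 ± 0.09, adjusted p = 0.00649). The cotransporter gene Slc12a3 averaged 172 ± 5.82 RPKM in the knockout and 172 ± 11.2 RPKM in wild type (SD, n = 4 each), with a difference of 0.00 ± 0.08 (adjusted p = 0.998). Klk1, tissue kallikrein of the connecting tubule, had 1946, 1751, 2045 and 1599 RPKM in the knockout and 1210.2, 1182, 1285 and 1133 RPKM in wild type (0.60 ± 0.08, adjusted p = 1.89e-04), and has near-identical paralogs among which reads could be split. Of 15 distal convoluted and connecting tubule genes 4 were higher and 0 lower, with a median of 0.08.

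In the principal cell list 4 of 15 genes were higher and 1 lower. Nedd4l, a ubiquitin ligase that removes the epithelial sodium channel from the membrane, had 10.04, 9.996, 8.34 and 10.2 RPKM in the knockout and 3.16, 3.95, 4.57 and 4.46 RPKM in wild type. Its groups lay well apart (1.24 ± 0.21, adjusted p = 8.90e-04). Kcnj10, a basolateral potassium channel, had 23.6, 24.1, 25.5 and 23.7 RPKM in the knockout and 18.2, 19.7, 20.8 and 19.2 RPKM in wild type (0.31 ± 0.07, adjusted p = 0.00734). Aqp4, a basolateral water channel, was lower at 0.426, 1.06, 0.957 and 0 RPKM, against 7.04, 5.80, 2.35 and 5.98 RPKM in wild type (adjusted p = 0.0115), and 1 knockout library is listed at 0. Aqp2, the vasopressin-regulated water channel, spanned 124 to 192 RPKM in the knockout and 99.4 to 221 RPKM in wild type and did not pass (adjusted p = 0.665). In the thick ascending limb list 3 of 12 genes were higher and 1 lower. Ppp1r1b, a phosphatase inhibitor, had 44.9, 40.4, 40.5 and 40.7 RPKM in the knockout and 26.04, 27.2, 26.2 and 25.3 RPKM in wild type (0.66 ± 0.09, adjusted p = 1.02e-04). Umod, uromodulin, the most abundant protein of normal urine, had 743, 584, 566 and 685 RPKM in the knockout and 837, 918, 749 and 916 RPKM in wild type (-0.41 ± 0.10, adjusted p = 0.0122).

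Proximal tubule and renin genes gave few calls. Of 22 proximal tubule markers 1 was higher and 1 lower. Slc22a8, the organic anion transporter OAT3, had 209, 214, 221 and 224 RPKM in the knockout and 151, 159.9, 151 and 166 RPKM in wild type (0.47 ± 0.05, adjusted p = 4.42e-05). Slc5a2, the glucose transporter SGLT2, had 165, 137, 149 and 147 RPKM in the knockout and 208, 202, 195 and 256 RPKM in wild type (-0.52 ± 0.11, adjusted p = 0.00420). Of 10 renin-angiotensin genes Atp6ap2 alone passed, and Ren1, renin, ranged over 30.1 to 102 RPKM in the knockout and 38.6 to 183 RPKM in wild type.

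IRR is a relative of the insulin receptor, and the insulin receptor family and its signalling genes were examined next. Of 37 tested genes 4 were higher and 3 lower, and the median was 0.08. These counts are near the shares of all genes tested, 9.03% higher and 9.36% lower, so the list as a whole did not stand out. Irs2, an adaptor that carries insulin and IGF signals from the receptor, had 13.9, 9.21, 11.8 and 13.4 RPKM in the knockout and 6.94, 5.48, 6.04 and 5.57 RPKM in wild type. The lowest knockout library was above the highest wild-type library (0.98 ± 0.18, adjusted p = 0.00149). Insr, the insulin receptor, had 18.6, 18.1, 18.03 and 19.002 RPKM in the knockout and 12.9, 14.4, 16.3 and 13.2 RPKM in wild type (0.38 ± 0.09, adjusted p = 0.00695). Rheb, the small GTPase that activates mTORC1, had 26.2, 18.1, 18.6 and 17.7 RPKM in the knockout and 33.8, 29.3, 32.3 and 32.3 RPKM in wild type (-0.68 ± 0.10, adjusted p = 3.36e-04). Grb2, an adaptor to the Ras pathway, gave -0.35 ± 0.10 (adjusted p = 0.0187). These 4 calls held in all 8 fits, and those of Igf1r, Tsc2 and Akt1 passed in 1 or 2 of the 8. The count of 4 higher genes was 2 without knockout library 1, 2, 3 or 4 or wild-type library 1 or 4.

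Of 20 tested neighbours of Insrr on chromosome 3, 3 were higher and 2 lower. Naxe, which repairs damaged NADH, had 64.7, 66.1, 62.9 and 67.8 RPKM in the knockout and 49.8, 49.9, 49.7 and 48.8 RPKM in wild type (0.40 ± 0.06, adjusted p = 3.87e-04). Lmna, which encodes lamins A and C, had 12.9, 12.5, 13.4 and 13.6 RPKM in the knockout and 19.4, 18.3, 20.6 and 18.9 RPKM in wild type (-0.55 ± 0.08, adjusted p = 3.87e-04). The share of neighbours that passed, 5 of 20, is set against 18.4% of all genes.

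Transcripts of energy metabolism enzymes passed in both directions. Of 25 genes of gluconeogenesis and glycolysis 9 were lower and 3 higher, with a median of -0.21. Ldha, the muscle-type lactate dehydrogenase subunit, had 187, 175, 170.3 and 176 RPKM in the knockout and 258, 267, 262 and 274 RPKM in wild type (-0.58 ± 0.08, adjusted p = 2.85e-04). Ldhb, the heart-type subunit, was higher with 110.4, 64.3, 64.1 and 55.2 RPKM in the knockout, library 1 well above the others, and 14.5, 15.1, 15.1 and 15.8 RPKM in wild type (2.22 ± 0.32, adjusted p = 3.26e-04). Fbp1, a gluconeogenic phosphatase of the proximal tubule, had 480.4, 389, 356 and 390.1 RPKM in the knockout and 588, 578, 737 and 618 RPKM in wild type (-0.64 ± 0.10, adjusted p = 6.06e-04). Hk1, the first enzyme of glycolysis in most cells, had 82.2, 93.7, 88.2 and 104.7 RPKM in the knockout and 36.4, 39.1, 39.5 and 43.1 RPKM in wild type (1.22 ± 0.28, adjusted p = 0.00853). Aldoc, an aldolase, was also higher (0.76 ± 0.14, adjusted p = 0.00172). Pgk1 (-0.31, adjusted p = 0.00317) and Gapdh (-0.46, adjusted p = 0.0105), enzymes shared by both routes, were lower. The calls of Ldha, Ldhb, Fbp1, Hk1, Aldoc, Pgk1 and Gapdh held in all 8 fits, and Gapdh has many processed copies in the genome. Those of Eno1, Pklr, Pgam1, Pfkm and Pfkl, all lower, did not hold in all 8. Summed with its near copy Eno1b, Eno1 overlapped between the groups. Without knockout library 4 the count of lower genes was 5.

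Of 20 citric acid cycle genes 6 were lower and 3 higher, with a median of -0.18. The higher genes were Idh3a, Idh3b and Ogdh. Idh3a had no RPKM in any wild-type library, as given below, which can be a failed estimate. Without wild-type library 3, 5 were lower and 4 higher, with a median of -0.07, without knockout library 1, 5 were lower and 1 higher, and without wild-type library 2, 6 were lower and 1 higher. Sucla2 and Suclg1, subunits of succinyl-CoA ligase, gave -0.41 ± 0.06 (adjusted p = 2.52e-04) and -0.54 ± 0.09 (adjusted p = 6.00e-04). Dlst, a subunit of the oxoglutarate dehydrogenase complex, had 66.8, 62.98, 66.1 and 65.7 RPKM in the knockout and 80.3, 83.1, 94.8 and 96.7 RPKM in wild type (-0.44 ± 0.07, adjusted p = 6.42e-04). Idh1, the cytosolic isocitrate dehydrogenase kept in this list, gave -0.43 ± 0.07 (adjusted p = 6.35e-04). In fatty acid oxidation 4 of 31 genes were lower and 1 higher, and without wild-type library 3 the counts were 1 lower and 2 higher. The lower count was also 1 without knockout library 2 or 4, and 2 without knockout library 1. Acadvl, the very long chain acyl-CoA dehydrogenase, held in all 8 fits, with 117, 115, 117 and 113 RPKM in the knockout and 146, 168, 203 and 148 RPKM in wild type (-0.51 ± 0.12, adjusted p = 0.00711).

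In cholesterol synthesis 1 of 25 genes was lower and 1 higher. Hmgcs1, which makes HMG-CoA in the cytosol, had 42.8, 44.2, 40.3 and 52.6 RPKM in the knockout and 96.2, 88.4, 90.7 and 109.6 RPKM in wild type. Every knockout library lay well under every wild-type library (-1.10 ± 0.09, adjusted p = 2.71e-06). The median difference of the 25 genes was -0.06. Its promoter window (chr13:119690101-119690400, plus strand, GRCm38.p6) is shown because it was the only 1 of 17 cholesterol genes in the RefSeq table with a match to TCACNCCAC, a form of the sterol regulatory element, on either strand. The match is in capitals and starts 137 bases before the start site.
Hmgcs1: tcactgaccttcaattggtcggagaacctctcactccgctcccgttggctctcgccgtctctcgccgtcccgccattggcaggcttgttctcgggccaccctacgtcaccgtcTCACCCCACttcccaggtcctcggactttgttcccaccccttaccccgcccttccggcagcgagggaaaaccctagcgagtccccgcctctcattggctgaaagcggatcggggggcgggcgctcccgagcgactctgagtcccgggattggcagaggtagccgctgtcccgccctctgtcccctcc
This motif was found in 1.44% of all genes of the table and 1.41% of tested genes. The CCAAT box was in 16 of the 17 windows and in 41.1% of all genes and 42.5% of tested genes.

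All 13 mitochondrially encoded genes, subunits of the respiratory chain and ATP synthase, were higher in the knockout with RPKM as deposited, with a median of 1.12, while under quantile normalization 2 were higher and 2 lower. mt-Cytb, cytochrome b of complex III, had 45673, 51534, 50497 and 45558 RPKM in the knockout and 21223, 21731, 25752 and 20447 RPKM in wild type (1.12 ± 0.07, adjusted p = 1.87e-07). mt-Nd6, the subunit coded on the other strand, gave 1.64 ± 0.08, mt-Nd3 gave 2.49 ± 0.29 and mt-Co3, the lowest of the 13, 0.54 ± 0.07. mt-Atp8, which overlaps mt-Atp6, had 1515850.0, 1502370.0, 1529040.0 and 1305170.0 RPKM in the knockout and 588811, 641152, 675328 and 655036 RPKM in wild type, the highest level of any gene in either group. Quantile normalization gives every library the same set of values, so a shift shared by the genes of the highest ranks is removed by its construction. Under it 6 of the 13 differences were positive and 6 negative, with a median of 0.00, mt-Co3 at -0.46 and mt-Cytb at -0.16. With the trend on transcript length and GC content removed, 11 were higher and 0 lower. Copies of mitochondrial sequence in the nuclear genome can share reads with these genes.

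Nuclear subunits of the respiratory complexes were higher in 32 of 75 cases and lower in 10, with a median of 0.21. Ndufa1, a small subunit of complex I, had 325, 298, 291 and 278 RPKM in the knockout and 163, 148, 181 and 141 RPKM in wild type (0.92 ± 0.08, adjusted p = 2.24e-06). Ndufa12, another of complex I, gave 0.87 ± 0.08 (adjusted p = 4.96e-06), and Uqcrh, the hinge protein of complex III, 0.82 ± 0.08 (adjusted p = 9.82e-06). Among the 10 lower genes Ndufv1, which binds NADH in complex I, had 60.4, 67.2, 71.01 and 63.5 RPKM in the knockout and 104, 99.9, 99.5 and 109.8 RPKM in wild type (-0.66 ± 0.08, adjusted p = 9.15e-05). Atp5a1, the alpha subunit of ATP synthase, had 708, 701, 738 and 729 RPKM in the knockout and 938, 968, 1144 and 992 RPKM in wild type (-0.49 ± 0.07, adjusted p = 1.79e-04). Cox7c, a small subunit of complex IV, was lower too (-0.97 ± 0.09, adjusted p = 9.06e-06). The longest annotated transcript had a median length of 862 nt among the 32 higher genes and 1553 nt among the 10 lower genes.

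That relation to length ran across the table. Of the 34 tested genes with a longest transcript of up to 500 nt, 12 were higher and 1 lower, with a median difference of 0.39. At 501 to 1000 nt, 140 of 466 were higher and 37 lower, with a median of 0.20. The 3 bins of longer genes had medians between -0.06 and 0.03, and 15.8% to 22.7% of their genes passed. Removing the trend on length and GC content left 27 higher and 12 lower respiratory subunits with a median of 0.11. The part of transcript length in these results was not tested further.

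**Figure D2:**
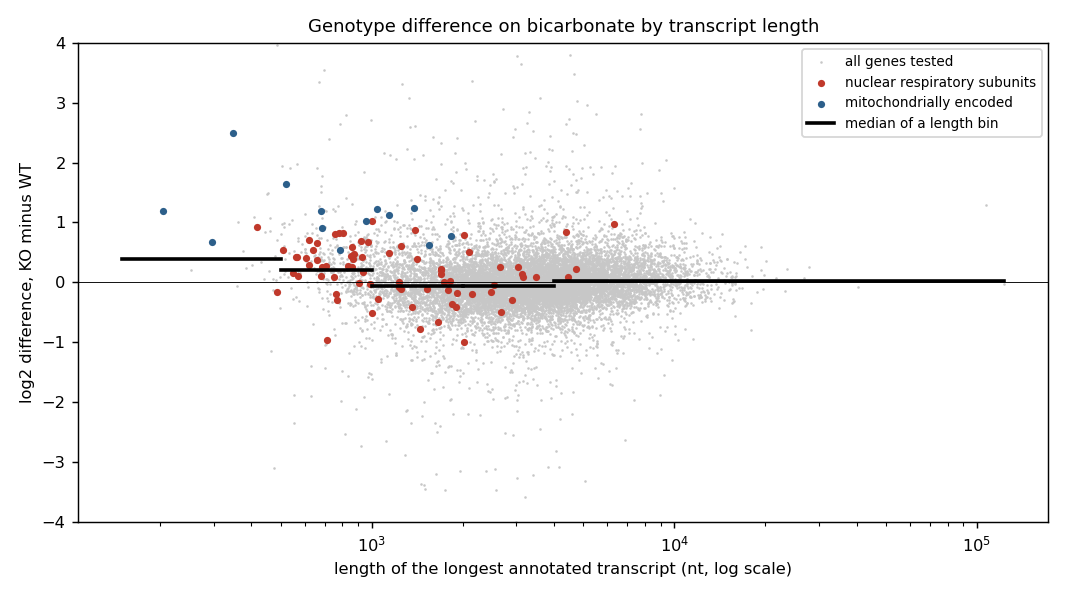
Log2 difference of knockout minus wild type on bicarbonate against the length of the longest annotated transcript (nt, log axis), 1 point per gene tested; black lines are the medians of the 5 length bins. The medians are 0.39 and 0.20 in the 2 bins up to 1000 nt and near 0 in the longer bins, and the 32 higher respiratory subunits have a median length of 862 nt; 21 genes beyond a difference of 4 are outside the plot.

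Ribosomal proteins went both ways. Of 78 cytosolic ribosomal protein genes 20 were higher and 14 lower, and 20 and 22 after removal of the trend on length and GC content, with medians of 0.12 and 0.02. Rpl35, a protein of the large subunit, was lower with 85.6, 88.6, 88.9 and 88.2 RPKM in the knockout and 291, 343, 478 and 253 RPKM in wild type (-1.92 ± 0.15, adjusted p = 9.56e-07). Ribosomal protein genes have many processed copies among which reads can be split, so a change of a single member is uncertain. Among 77 mitochondrial ribosomal proteins 17 were higher and 15 lower, and 11 were higher without wild-type library 2 or 4. Mrps36 (0.92 ± 0.08, adjusted p = 2.99e-06) was higher, and Mrpl43 (-0.61 ± 0.07, adjusted p = 2.78e-05) was lower.

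Chaperone genes were lower more often than higher. Of 35 tested chaperone and heat shock genes 12 were lower and 2 higher, with a median of -0.29, and 10 of the 12 lower calls held in all 8 fits. The cytosolic chaperonin TRiC, a ring of 8 subunits that folds actin and tubulin, was lower in 6 of its 7 tested subunits. Cct8 had 84.1, 87.9, 86.6 and 75.7 RPKM in the knockout and 121, 114, 136 and 129 RPKM in wild type (-0.58 ± 0.08, adjusted p = 1.09e-04), and Cct5 had 64.4, 58.1, 52.7 and 54.8 RPKM in the knockout and 87.5, 84.7, 94.9 and 87.6 RPKM in wild type (-0.63 ± 0.08, adjusted p = 1.11e-04). Cct2, Cct3, Cct4 and Tcp1 gave -0.44, -0.40, -0.51 and -0.38, and Cct7, the exception, 0.24 (adjusted p = 0.149). The mitochondrial chaperonin pair split. Hspd1, the 60-kDa chaperonin, had 190.3, 192, 171 and 184 RPKM in the knockout and 234, 239.9, 252 and 248 RPKM in wild type (-0.40 ± 0.06, adjusted p = 3.31e-04). Its partner Hspe1, the small co-chaperonin, had 331, 296, 291 and 288 RPKM in the knockout and 165, 181, 225 and 168 RPKM in wild type (0.72 ± 0.09, adjusted p = 1.16e-04), and both genes are read from a shared promoter region. The longest transcript of Hspd1 has 2423 nt and that of Hspe1 964 nt. GAANNTTC, a pair of heat shock element units, was in 10 of 30 chaperone windows of the RefSeq table, those of Cct2, Hspd1 and Hspe1 among them, and in 9.04% of all genes and 6.98% of tested genes.

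Antioxidant and detoxifying enzymes counted 6 lower and 3 higher of 34. Prdx5, a mitochondrial and peroxisomal peroxiredoxin, had 306, 248.96, 233 and 224 RPKM in the knockout and 663, 679.6, 631 and 676 RPKM in wild type, and the groups lay far apart (-1.399 ± 0.10, adjusted p = 2.81e-07). Prdx1, its cytosolic relative, had 657, 655, 591 and 588 RPKM in the knockout and 972, 956, 946 and 925 RPKM in wild type (-0.61 ± 0.07, adjusted p = 6.03e-05). Gstp1, a glutathione transferase with a near-identical neighbour, gave -0.68 ± 0.13 (adjusted p = 0.00191). Txn1, thioredoxin, was higher with 138, 130.3, 116 and 117 RPKM in the knockout and 104, 91.7, 96.3 and 98.7 RPKM in wild type (0.36 ± 0.08, adjusted p = 0.00891). Sod2 and Sod3, superoxide dismutases of mitochondria and of the extracellular space, were higher by 0.27 and 0.46 on the log2 scale (adjusted p = 0.0134 and 0.0121). Of 29 lysosomal enzymes 4 were higher and 5 lower, and 2 were higher without knockout library 3 or 4 or wild-type library 1. Ctsa, a protective carboxypeptidase, gave 0.58 ± 0.10 (adjusted p = 0.00110) and its partner Neu1, the lysosomal sialidase, -0.53 ± 0.09 (adjusted p = 7.03e-04).

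Of 19 circadian clock genes 2 were higher and 0 lower, and 16 had positive differences, with a median of 0.39. The count of 2 higher genes is near the share of all genes tested that were higher, 9.03%. Per1 was the 1 clock gene whose call held in all 8 fits. Per1, a repressor of the clock that also answers to aldosterone in the collecting duct, had 26.3, 27.1, 24.9997 and 26.2 RPKM in the knockout and 15.5, 18.7, 22.3 and 18.6 RPKM in wild type (0.49 ± 0.12, adjusted p = 0.00916). Tef, a clock output transcription factor, had 111, 118, 116 and 104 RPKM in the knockout and 50.6, 66.5, 91.9 and 106 RPKM in wild type, where the 4 libraries spread over a wide range and overlapped with the knockout. Its difference of 0.57 ± 0.17 (adjusted p = 0.0316) passed in 2 of the 8 fits that left out a library and was 0.37 to 0.73 over all 8. Nr1d1, a nuclear receptor of the clock, had 46.9, 49.6, 48.4 and 40.6 RPKM in the knockout and 27.4, 36.7, 29.1 and 42.7 RPKM in wild type (adjusted p = 0.0506). Dbp, another output transcription factor, had 13.3, 17.98, 18.7 and 15.98 RPKM in the knockout and 4.20, 7.07, 17.4 and 17.02 RPKM in wild type, where libraries 1 and 2 were low and libraries 3 and 4 lay within the knockout range (adjusted p = 0.223). The count of 2 higher clock genes was 1 without knockout library 1, 2 or 3 or wild-type library 1 or 2, 4 without wild-type library 4 and 5 without wild-type library 3. The median was 0.21 without wild-type library 1. The hour of the day at which each kidney was taken is not stated by the labels. The windows of Per1 (chr11:69098699-69098998) and Tef (chr15:81802423-81802722), both on the plus strand in GRCm38.p6, are shown as the 2 clock genes that passed, with the E-box CACGTG, bound by the activators of the clock, in capitals.
Per1: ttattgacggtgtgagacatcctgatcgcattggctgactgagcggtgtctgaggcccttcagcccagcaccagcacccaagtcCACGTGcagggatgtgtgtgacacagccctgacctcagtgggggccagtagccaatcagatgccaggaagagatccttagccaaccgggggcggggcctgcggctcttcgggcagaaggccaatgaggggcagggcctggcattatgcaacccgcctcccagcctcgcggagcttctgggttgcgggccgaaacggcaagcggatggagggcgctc
Tef: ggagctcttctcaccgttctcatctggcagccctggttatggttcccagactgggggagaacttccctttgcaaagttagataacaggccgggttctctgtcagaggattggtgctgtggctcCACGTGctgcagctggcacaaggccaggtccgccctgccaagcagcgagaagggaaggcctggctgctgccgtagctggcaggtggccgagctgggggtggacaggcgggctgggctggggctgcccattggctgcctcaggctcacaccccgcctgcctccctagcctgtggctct
The E-box starts 166 bases before the start site of Per1 and 127 before that of Tef. It was in the windows of 5 of 16 clock genes and in 8.09% of all genes and 11.5% of tested genes. A second annotated start of Per1 had no match and a second start of Tef had 1.

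Markers of tubule injury were lower or did not pass. Of 14 tested genes 5 were lower and 0 higher, with a median of -0.64. Fgg, the fibrinogen gamma chain that injured tubules make, had 1.07, 1.89, 0.971 and 1.54 RPKM in the knockout and 14.9, 10.9, 41.1 and 8.81 RPKM in wild type, with wild-type library 3 the highest (-3.46 ± 0.43, adjusted p = 8.80e-05). Fgb, the beta chain, had 0.0912, 0.0470, 0.0642 and 0.0903 RPKM in the knockout and 1.51, 0.705, 4.55 and 0.657 RPKM in wild type (-3.09 ± 0.45, adjusted p = 3.12e-04). Fga, the alpha chain, did not pass (-0.96 ± 0.36, adjusted p = 0.0783). Krt8, a keratin of simple epithelia, had 30.6, 28.1, 27.4 and 30.4 RPKM in the knockout and 41.9, 39.9, 43.8 and 42.1 RPKM in wild type (-0.53 ± 0.10, adjusted p = 0.00149). Clu, clusterin, had 159, 151, 165 and 144 RPKM in the knockout and 205, 212, 187 and 207 RPKM in wild type (-0.39 ± 0.10, adjusted p = 0.0127). Without wild-type library 3, 5 genes of the list were lower, with a median of -0.42. All 16 tested cell cycle genes had negative differences, with a median of -0.30, and 3 passed. The median was -0.18 without wild-type library 4 and -0.46 without wild-type library 2. Without knockout library 3, wild-type library 3 or wild-type library 4, and with array weights, 1 or 2 of the 16 turned positive. After removal of the trend on length and GC content 1 turned positive, and 1 of the 16 passed in place of 3. Knstrn, a spindle protein, was the one whose call held in all 8 fits, with 0.210, 0.448, 0.185 and 0.178 RPKM in the knockout and 1.24, 1.24, 1.34 and 2.25 RPKM in wild type (-2.20 ± 0.28, adjusted p = 9.55e-05). None of 17 immediate early genes passed in limma, and 1 had an unadjusted p under 0.05.

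Immune and vascular markers gave few calls. None of 13 macrophage and lymphocyte genes passed in limma, with 3 at an unadjusted p under 0.05, and Ptprc, the leukocyte antigen CD45, averaged 2.62 ± 0.395 RPKM in the knockout and 3.04 ± 0.431 RPKM in wild type (SD, n = 4 each). Of 14 tested genes of MHC class II and antigen presentation 2 were higher and 1 lower, with 6 positive and 8 negative differences and a median of -0.03. The lower gene was H2-K1, a class I chain, whose call did not hold in all 8 fits that left out a library. H2-Ab1, a class II antigen-presenting chain, was higher with 40.1, 56.9, 47.3 and 50.95 RPKM in the knockout and 23.6, 22.8, 26.8 and 22.6 RPKM in wild type (1.02 ± 0.16, adjusted p = 5.07e-04). B2m, the light chain of class I molecules, had 691, 868, 740.1 and 748 RPKM in the knockout and 571, 534, 605 and 480.1 RPKM in wild type (0.48 ± 0.09, adjusted p = 0.00149). Ifitm3 was higher (0.73 ± 0.12, adjusted p = 6.67e-04) and Irf7 lower (-1.31 ± 0.27, adjusted p = 0.00387) among 22 interferon-responsive genes, of which 1 was higher and 2 lower. In the podocyte list, 2 of 10 were higher and 1 lower. Nphs1, nephrin of the filtration slit, had 5.62, 4.75, 4.70 and 6.91 RPKM in the knockout and 9.37, 10.5, 9.72 and 9.08 RPKM in wild type (-0.82 ± 0.19, adjusted p = 0.00695). Tcf21, a transcription factor of podocytes and stroma, had 10.2, 9.70, 9.91 and 11.3 RPKM in the knockout and 5.64, 7.75, 6.23 and 5.95 RPKM in wild type (0.69 ± 0.15, adjusted p = 0.00602). Esam, an adhesion molecule of vessels, was the 1 lower of 14 endothelial genes (-0.53 ± 0.11, adjusted p = 0.00367), and 1 of 16 stromal genes was lower. None of 8 urothelial genes and none of 6 adipose genes passed in limma, with 1 of each at an unadjusted p under 0.05, and all 6 adipose differences were negative. Of 8 adrenal markers 1 was tested, and it did not pass.

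Histone genes counted 4 lower and 2 higher of 24. H2afz, which encodes the variant histone H2A.Z, had 45.4, 53.1, 58.2 and 62.4 RPKM in the knockout and 139, 144, 136 and 129.7 RPKM in wild type with all knockout libraries far under the wild-type range (-1.33 ± 0.11, adjusted p = 1.81e-06). Hist1h1c, linker histone H1.2, had 26.1, 36.3, 30.5 and 30.6 RPKM in the knockout and 80.2, 64.9, 53.5 and 41.8 RPKM in wild type (-0.93 ± 0.18, adjusted p = 0.00267). Hist2h2aa1 and Hist2h2aa2 code for the same histone H2A protein from near-identical copies and moved in opposite directions. Hist2h2aa2 had 20.9, 22.8, 21.6 and 23.3 RPKM in the knockout and 9.01, 0, 0 and 0 RPKM in wild type, and Hist2h2aa1 had 5.13, 2.21, 0 and 0 RPKM in the knockout and 24.9, 24.6, 23.4 and 19.8 RPKM in wild type. Summed over both, the level was 21.6 to 26.1 RPKM in the knockout and 19.8 to 33.9 RPKM in wild type, so the groups overlapped and the calls of each copy are uncertain.

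**Figure D3:**
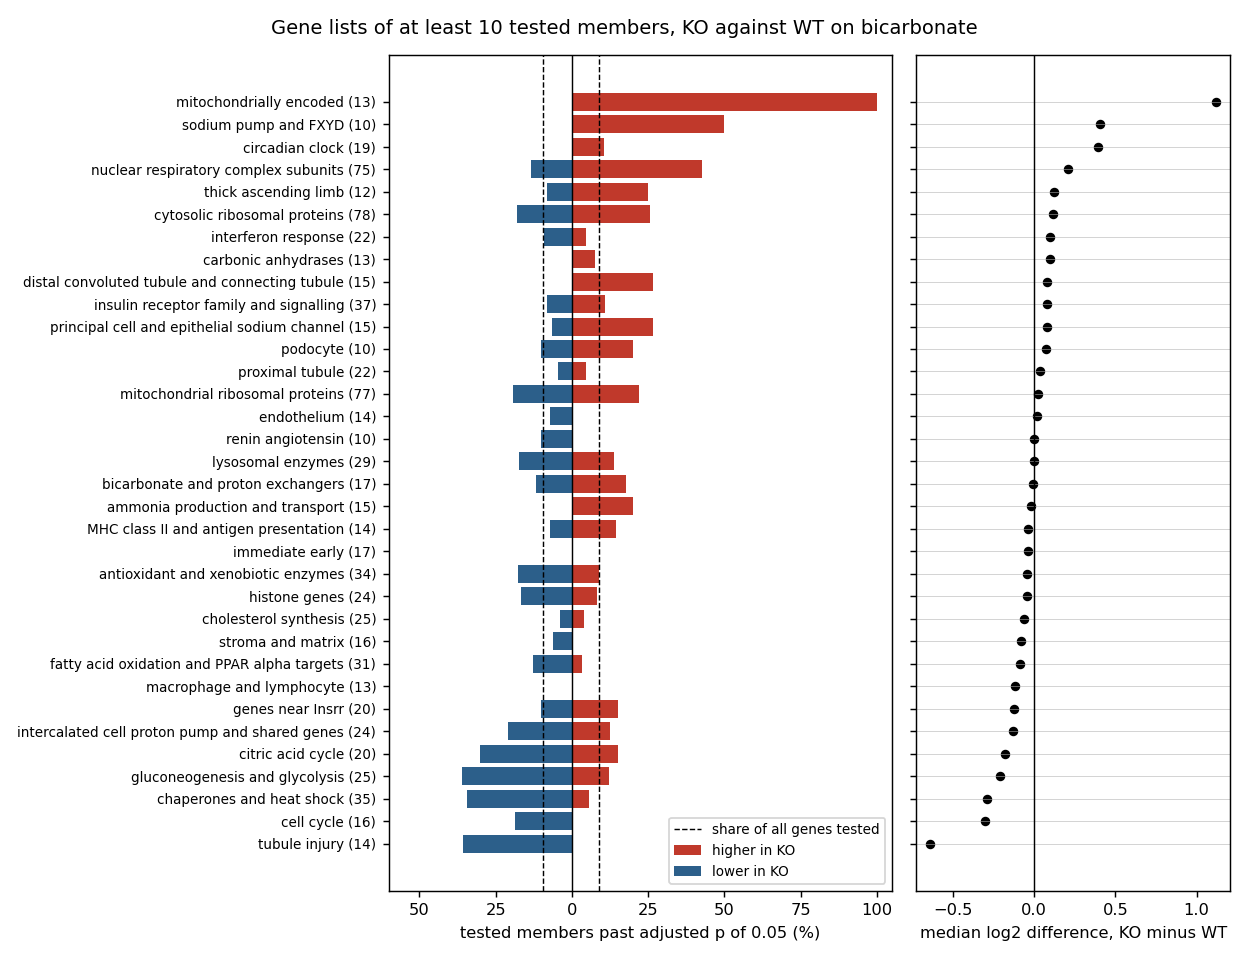
Share of the tested members of the 34 gene lists with at least 10 tested members (number tested in brackets) that were higher (red, right of 0) or lower (blue, left of 0) in the knockout, beside the median log2 difference of each list. Dashed lines mark the 9.03% higher and 9.36% lower among all genes; the mitochondrially encoded list is at the top with 13 of 13 higher (2 higher and 2 lower under quantile normalization) and the tubule injury list at the bottom with a median of -0.64.

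Many of the largest differences belonged to genes listed at 0 in 1 genotype, where no fold is given. Idh3a, a catalytic subunit of mitochondrial isocitrate dehydrogenase, had 27.4, 23.6, 24.3 and 23.8 RPKM in the knockout and was listed at 0 in all 4 wild-type libraries (adjusted p = 1.83e-12). Maz, a zinc finger transcription factor, had 8.06, 5.28, 7.44 and 4.15 RPKM in the knockout and was listed at 0 in all wild-type libraries (adjusted p = 6.49e-04). Conversely Morn2 was listed at 0 in all knockout libraries and had 20.6, 20.7, 16.9 and 13.03 RPKM in wild type (adjusted p = 1.83e-12). Fam133b was likewise listed at 0 in the knockout and had 6.15, 7.22, 10.4 and 8.60 RPKM in wild type (adjusted p = 3.91e-12). Rsc1a1, which lies within Ddi2 on the same strand, was listed at 0 in the knockout and had 6.89, 6.47, 4.15 and 6.15 RPKM in wild type (adjusted p = 1.47e-08). A subunit of a housekeeping cycle listed at 0 in a kidney can be a failed estimate, and whether any of these zeros is one was not tested.

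Others of this kind had close relatives. Eno1b, a near copy of the glycolytic gene Eno1, had 159, 171, 160.0 and 155 RPKM in the knockout and 3.996, 0, 0 and 0 RPKM in wild type, while Eno1 had 371, 302, 359 and 339.5 RPKM in the knockout and 431, 459.6, 698 and 478 RPKM in wild type. Their sum was 474 to 529.8 RPKM in the knockout and 435 to 698 RPKM in wild type and overlapped between the groups. Hsd3b4, a steroid dehydrogenase, had 263, 279, 181 and 231 RPKM in the knockout and 20.8, 0, 0 and 0 RPKM in wild type. Summed with its relatives Hsd3b2 and Hsd3b3 the level was 284 to 345 RPKM in the knockout and 54.6 to 71.5 RPKM in wild type, without overlap. Pagr1b summed with Pagr1a was 3.81 to 5.35 RPKM in the knockout and 0.527 to 1.04 RPKM in wild type. On the same strand, Pagr1a shares 1412 exon bases with Gm42742, and Pagr1b shares 347 with Gm42742 and 346 with Mvp. Neither Gm42742 nor Mvp is in that sum, so reads could still be split with them. Mrpl42 (30.3, 50.4, 22.04 and 40.4 RPKM in the knockout, 1.96, 0, 0 and 0 RPKM in wild type) and Krcc1 (37.03, 35.4, 38.2 and 27.3 RPKM in the knockout, 0, 0, 0.520 and 2.86 RPKM in wild type) were also among the 12 highest differences.

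Away from zeros, Teddm2 had 9.17, 8.90, 6.76 and 9.85 RPKM in the knockout and 0.658, 0.340, 0.822 and 0.652 RPKM in wild type (3.65 ± 0.20, adjusted p = 1.79e-08). Its exons overlap those of Glul, glutamine synthetase, on the opposite strand by 116 bases, and Glul was also higher, with 919, 695, 505 and 584 RPKM in the knockout and 335, 442, 509 and 497 RPKM in wild type (0.58 ± 0.19, adjusted p = 0.0406). The groups of Glul overlapped, and its call passed in 3 of the 8 fits that left out a library, where its difference was 0.42 to 0.71. Tkfc, which phosphorylates dihydroxyacetone and glyceraldehyde from fructose, had 18.7, 32.9, 15.6 and 26.8 RPKM in the knockout and 124, 116, 179.5 and 105.3 RPKM in wild type (-2.51 ± 0.32, adjusted p = 1.04e-04). Exons of many named genes overlap those of genes on the opposite strand, by 14 to 2059 bases for a pair of genes. The longest such overlap was 306 to 1151 bases for each of Acadvl, Slc4a2, Rpl35, Slc5a2, Nphs1, Tkfc, Hmgcs1, Umod, Prdx5 and Wnk4. The same range held for Acp2, Alas2, Atp1b1, Ctsa, Dbp, Hist2h2aa1, Hist2h2aa2, Mrpl43, Pklr, Ppp1r1b, Tcp1 and Tsc2. Fxyd3 had the overlap of 2059 bases. The sources used here do not say whether the values separate the strands.

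Many genes passed between the genotypes on both drinks. On water 2833 genes passed between knockout and wild type (21.9%), and 1546 genes passed on both drinks, 1544 of them in the same direction. These 1544 were 64.8% of the genes that passed on bicarbonate and 54.5% of those that passed on water, 778 higher and 766 lower. The 2 comparisons are between different libraries, but both take the spread from 1 fit of all 16. Slc26a4 differed by -1.07 on bicarbonate and -0.99 on water, and in the same order Fxyd2 differed by 1.98 and 2.04, Hmgcs1 by -1.10 and -1.03, and Wnk4 by 0.74 and 0.86. The sizes were further apart for other genes that passed on both drinks, such as Txn1 (0.36 on bicarbonate and 0.67 on water), Clu (-0.39 and -0.65) and Fgb (-3.09 and -1.37). A further 835 genes passed on bicarbonate and not on water. Of these, 749 had the same sign on water, 86 the opposite sign, and 304 an unadjusted p under 0.05 there. Irs2 was of this kind, at 0.98 on bicarbonate and 0.35 on water (adjusted p = 0.181), and so were Neu1 (-0.53 and -0.04), Nphs1 (-0.82 and -0.08) and Hba-a2 (-1.89 and -0.19). The interaction of genotype and drink was not significant for any of these 4 genes, with limma adjusted p of 0.565 for Irs2, 0.420 for Neu1, 0.522 for Nphs1 and 0.565 for Hba-a2.

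**Figure D4:**
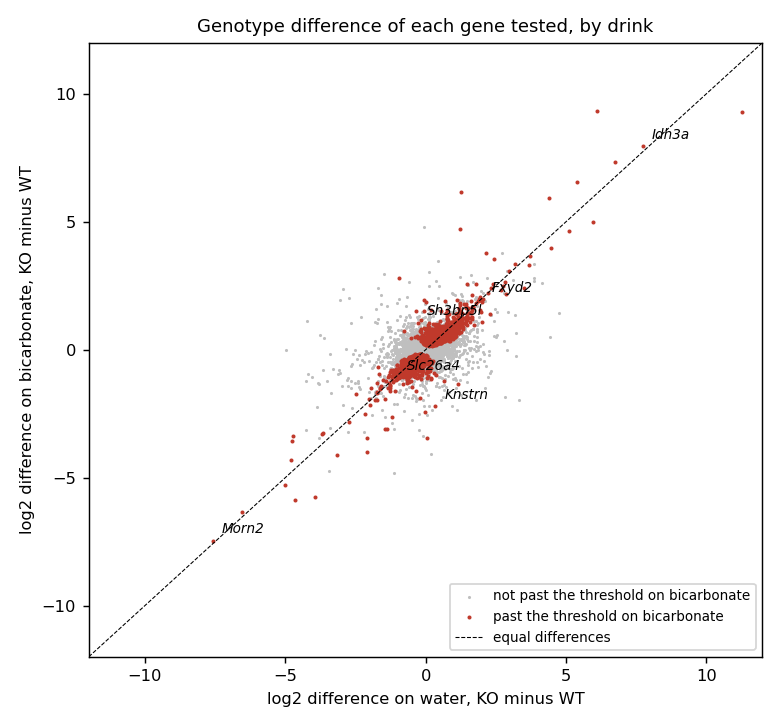
Log2 difference of knockout minus wild type on bicarbonate (vertical axis) against that on water (horizontal axis), 1 point per gene tested, with the genes that passed on bicarbonate in red and a dashed line where both are equal. The 1544 genes that passed on both drinks in the same direction lie at the upper right and lower left, at varying distance from the line, and Sh3bp5l and Knstrn lie off it.

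The interaction, the difference on bicarbonate minus that on water, passed for 2 of 12943 genes (0.0155%), and 1060 had an unadjusted p under 0.05. Sh3bp5l, an SH3-binding domain protein, had 12.6, 16.01, 9.43 and 15.7 RPKM in the knockout and 7.29, 5.54, 5.71 and 6.58 RPKM in wild type on bicarbonate. On water it had 5.34, 5.25, 5.12 and 5.45 RPKM in the knockout and 6.11, 6.32, 7.14 and 6.37 RPKM in wild type. The knockout libraries on bicarbonate thus stood above all others, and the interaction was 1.35 ± 0.20 (SE, limma adjusted p = 0.0471). Gm5096, an unnamed gene model, was listed at 0 in all libraries but those of wild type on water, which had 1.49, 3.82, 4.95 and 3.09 RPKM, so it carries no difference on bicarbonate. It met the filter through that group alone, and the size and p of its interaction depend on the pseudocount. Knstrn had the smallest p among negative interactions, where 0.589, 0.941, 0.945 and 1.005 RPKM in the knockout and 0.686, 0.7997, 0.430 and 0.746 RPKM in wild type on water gave a difference of 0.35, and its interaction of -2.55 ± 0.40 did not pass (adjusted p = 0.0520). Acp2, lysosomal acid phosphatase, differed by -0.85 on bicarbonate and 2.34 on water (interaction -3.18, adjusted p = 0.0844). For all other genes the interaction did not pass at 4 animals a group, which does not show that their genotype differences were equal on both drinks.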

How the data were processed

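RNA of 16 kidney slices, 1 per animal, was sequenced on Illumina libraries, per the labels' protocols. The authors deposited 1 table of RPKM per gene and library. Per the submitters' processing notes, Salmon 1.5.2, edgeR 3.34.0 and the builds GRCm39 and mm10 were used. The notes assign none of them to a step, so the annotation behind the RPKM is not stated. The deposited RPKM did not give back whole reads. Depth is therefore unknown, and counting error has no interval here. Symbols, positions and transcript lengths came from GENCODE M21 (GRCm38), which matched all 13430 gene IDs, and promoter windows from RefSeq (GRCm38.p6).

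A filter kept genes at 0.5 RPKM or more in 4 or more of the 16 libraries and set aside 487. limma 3.58.1 in R 4.3.3 was fitted to log2(RPKM + 0.1) with trended, robust empirical Bayes variance, as 4 group means over all 16 libraries (12 residual degrees of freedom). Tests were two-sided, with Benjamini-Hochberg adjustment over all genes of a comparison and a threshold of 0.05. The labels describe separate animals, and give no batch, litter or date.

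The members, the 41 gene lists (914 genes, 848 of them tested) and the tests were chosen with earlier results of these data known. The forkhead, TATA and heat shock motifs were chosen after the values were seen, as was leaving out each library on water. The rule named Insrr, the 12 highest and 12 lowest differences that passed in all 8 fits leaving out 1 bicarbonate library, without overlap, with a mean of at least 1 RPKM and a regular symbol, all tested intercalated cell markers, up to 3 members per list and the 5 smallest p of each sign of the interaction. Values are given for a part of these, and some named genes are not reported here. Other genes named, such as Lrp2, Slc12a3, Aqp2, Ren1, Ptprc, Foxi1, Fga and Dbp and further members of the lists that passed, were added after their values were seen.

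Alternatives were pseudocounts of 0.01 and 1, no filter, a filter at 1 RPKM, a fit of the 8 bicarbonate libraries alone, no trend or robust fitting, 3 other scalings (median of ratios, quantile, and the sum without mitochondrially encoded genes), removal of the trend on length and GC content, array weights, the replicate number as a block and leaving out each library.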

Additional observations from a re-analysis of the deposited data

Results flagged for a closer look

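In groups of 4 libraries, Dixon's criterion set apart the highest or lowest library by the ratio of its gap to the range. This was so in 26 of 281 groups examined. For normally distributed values chance sets apart about 1 group in 20. That rate does not apply where all other libraries of a group are at 0, because the ratio is then 1 by construction. Nor does it apply to genes chosen with their values known. Knockout library 1 was the highest for Slc26a4 (17.8 RPKM), Ldhb (110.4 RPKM), Rheb (26.2 RPKM), Ppp1r1b (44.9 RPKM), Fga (15.7 RPKM) and Fabp4 (325 RPKM), and the lowest for mt-Nd6 (58189 RPKM). Knockout library 2 was the highest for Knstrn (0.448 RPKM) and the lowest for Slc7a8 (80.6 RPKM). Knockout library 3 was the highest for Hsd3b2 (84.0 RPKM) and the lowest for Nedd4l (8.34 RPKM) and Pagr1a (0.554 RPKM). Knockout library 4 was the lowest for Wnk4 (74.8 RPKM), Cct3 (39.02 RPKM) and mt-Atp8 (1.31e+06 RPKM).

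Wild-type library 1 was the highest for Eno1b (4.00 RPKM), Hsd3b4 (20.8 RPKM), Hist2h2aa2 (9.01 RPKM) and Mrpl42 (1.96 RPKM), with the other 3 wild-type libraries listed at 0, and the lowest for Klhl3 (10.6 RPKM). Wild-type library 3 was the highest for Atp6v0b (232 RPKM), Ctsa (207 RPKM) and Grb2 (31.4 RPKM). Wild-type library 4 was the highest for Knstrn (2.25 RPKM) and the lowest for Wnk4 (44.0 RPKM) and Mrpl43 (24.3 RPKM). The genotype difference itself differed between bicarbonate and water for Sh3bp5l, with an interaction of 1.35 on the log2 scale, by limma's test of the interaction. Gm5096 also passed, at 4.99, a size that depends on the pseudocount because the gene was listed at 0 in 3 of the 4 groups.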

How the results depend on the processing

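The 2381 calls on bicarbonate became 2049 to 2957 under the other settings and 1748 to 2243 without 1 bicarbonate library, and the share called higher stayed between 48.5% and 52.6% except under the scaling to the sum without mitochondrially encoded genes (36.9%). Same-numbered knockout and wild-type libraries deviated together with correlations of 0.07, 0.10, 0.06 and -0.00, and differently numbered ones with -0.13 to 0.08. Correlations this small cannot decide whether a number marks a shared litter or day, which the labels do not say. With the replicate number as a block 2330 genes passed, 2142 of them among the 2381. Of the 119 genes named in the text whose bicarbonate difference passed, 119 kept their call with array weights, 110 after removal of the length and GC trend and 107 with the bicarbonate libraries alone. Under quantile normalization 112 kept it and mt-Co3 (-0.46) and mt-Cytb (-0.16) reversed. The count of 2 interaction calls was least stable. It was 0 with a pseudocount of 0.01 and with the filter at 1 RPKM, 1 with a pseudocount of 1 and with array weights, and 4 with no trend or robust fitting and after removal of the length and GC trend. Without 1 library it was 1 to 5, with 5 when wild-type bicarbonate library 4 and 4 when wild-type bicarbonate library 1 was left out. The causes were not tested. Depth is unknown, so low genes and zeros are the least certain values. The slice mixes cell types, and genotype cannot be told apart from any batch that follows it.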
